A study of Mus musculus with 6 samples.

Results

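The laminins, nidogens and perlecan of the follicular basal lamina were examined in mouse ovarian granulosa cells, the somatic cells that line the follicle and surround the oocyte. The 10 genes were Lama1, Lama2, Lama4 and Lama5 (laminin alpha chains), Lamb1 and Lamb2 (beta chains), Lamc1 (a gamma chain), Nid1 and Nid2 (nidogens) and Hspg2 (perlecan). They were taken as every probe set whose only gene symbol in the platform annotation was one of these names, which gave 20 of 45037 probe sets and 10 of 18193 genes. A probe set is a group of short array probes that together report 1 transcript, and each gene is given by its brightest probe set unless stated.

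RNA was measured on 6 expression arrays in 3 groups of 2. The controls were wild type mice at day 25 of age. The knockout, called dKO here, had the genotype Foxo1 f/-, Foxo3 f/-, Amhr2-cre and was measured at day 25 and at 2 months. The strain background of every group was a mix of FVB and C57BL/6. In the dKO the floxed Foxo1 and Foxo3 alleles are cut by a Cre recombinase driven from Amhr2, a gene expressed in granulosa cells, and the wild type is not labelled as carrying Cre. Wild type cells at 2 months were not analysed here, so genotype and age cannot be told apart in the comparison of the 2-month dKO with wild type. The labels do not say whether animals were pooled or whether the replicates came from separate mice, so the spread between replicates may be technical.

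The basal lamina is a thin sheet of matrix that separates the granulosa cells from the theca cells and blood vessels outside the follicle. Its laminins are heterotrimers of an alpha, a beta and a gamma chain that assemble into a network at the cell surface. Nidogens bind laminin and type IV collagen and so link both networks, and perlecan is a large heparan sulfate proteoglycan of the same sheet. Blood vessels and smooth muscle have basal laminae of their own, in which alpha 4, alpha 5 and beta 2 laminin chains are well known.

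Foxo1 intensity was 7666 to 10319 on the wild type arrays, 904 to 2291 in the dKO at day 25 and 126 to 343 at 2 months, while Foxo3 was 1342 to 1632, 2539 to 3279 and 1872 to 2484. Each Foxo3 probe set was higher on all dKO arrays than on both wild type arrays, so a loss of Foxo3 was not seen in these RNA values. A Foxo3 probe set outside the deleted part checks nothing, and the labels do not give that part. All 10 granulosa cell markers listed, among them Foxl2 and Inha, were at 993 or above on every array. The dKO 2-month replicate 1 array stood apart, with r of at most 0.978 with the other arrays, against up to 0.992 among those. The 2-month replicates differed by over 2-fold for 4 of the 10 genes and for 8.06% of all genes, against 1 of 10 in each of the other groups and 2.31% of all genes in wild type and 1.88% in the dKO at day 25. Log2 differences of brightest probe sets at 2 months are therefore given with and without that array.

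At day 25, Nid2, Nid1, Lamb1 and Lama5 were higher on both dKO arrays than on both wild type arrays, by log2 differences of 2.90, 1.07, 0.85 and 1.01. The mean of 9 of the 10 genes was higher in the dKO, against 55.4% of all genes, and that of Lama1 was lower. The dKO arrays lay above the wild type arrays without overlap for 5 of 10 genes (Lama5, Lamb1, Lamc1, Nid1 and Nid2), against 26.4% of all genes, and below them for 0 of 10, against 19.5%. The median log2 difference of the 10 genes was 0.56, against 0.029 over all genes. At an unadjusted p under 0.05 in limma, a linear model with a moderated spread, 3 of the 10 were higher (Lamb1, Nid1 and Nid2), against 4.88% of all genes, and 0 were lower, against 3.43%. After Benjamini-Hochberg adjustment over all probe sets 0 of the 10 passed a threshold of 0.05, as did 0% of all genes. Adjusted p-values of the 10 genes ran from 0.482 to 1 in limma. The count at an unadjusted p under 0.05 changed with the array left out, and no share over all genes is given for those fits. The median log2 difference was 0.34 without wild type replicate 2.

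**Figure D1:**
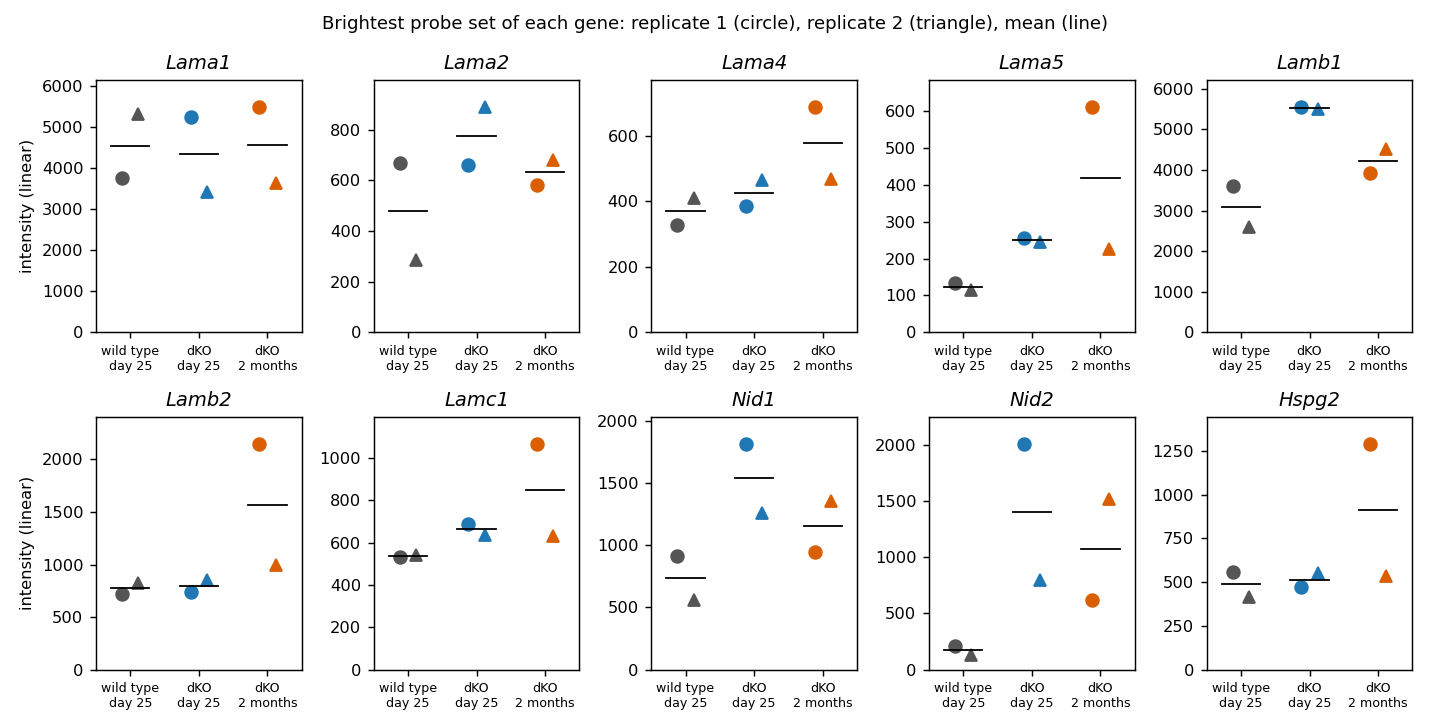
Intensity (linear scale, from 0) of the brightest probe set of each of the 10 genes on the 6 arrays. Circles are replicate 1, triangles replicate 2 and lines the mean of 2 arrays. Nid2 was at most 214 on the wild type arrays and at least 623 on every dKO array, while Lama1 overlapped between all groups.

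Sequence before the transcription start is shown for Nid1, Lamb1 and Lama5, whose genotypes did not overlap at day 25, and for Lamb2 and Hspg2, whose genotypes did. It comes from RefSeq (GRCm38.p6), which matched 6 of the 10 genes in the promoter table used here; Lama1, Lama4, Lamc1 and Nid2 had no entry. Bases inside the annotated gene are left out, and GGGCGG or its reverse CCGCCC, the core of the GC box bound by SP1 family factors, is in capitals. The positions are chr13:13437352-13437601 (plus strand) for Nid1, chr12:31265043-31265145 (plus strand) for Lamb1, chr2:180225905-180226109 (minus strand) for Lama5, chr9:108479612-108479846 (plus strand) for Lamb2 and chr4:137468553-137468750 (plus strand) for Hspg2.
Nid1: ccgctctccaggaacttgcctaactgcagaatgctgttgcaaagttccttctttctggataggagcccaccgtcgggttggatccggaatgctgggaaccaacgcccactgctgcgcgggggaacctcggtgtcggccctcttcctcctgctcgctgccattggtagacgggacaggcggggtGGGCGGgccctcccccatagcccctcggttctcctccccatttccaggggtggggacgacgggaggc
Lamb1: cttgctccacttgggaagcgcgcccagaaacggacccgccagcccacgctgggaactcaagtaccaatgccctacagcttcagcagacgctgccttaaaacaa
Lama5: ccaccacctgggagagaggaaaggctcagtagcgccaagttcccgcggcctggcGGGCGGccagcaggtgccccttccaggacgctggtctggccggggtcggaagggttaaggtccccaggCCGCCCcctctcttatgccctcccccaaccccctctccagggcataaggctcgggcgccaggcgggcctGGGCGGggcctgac
Lamb2: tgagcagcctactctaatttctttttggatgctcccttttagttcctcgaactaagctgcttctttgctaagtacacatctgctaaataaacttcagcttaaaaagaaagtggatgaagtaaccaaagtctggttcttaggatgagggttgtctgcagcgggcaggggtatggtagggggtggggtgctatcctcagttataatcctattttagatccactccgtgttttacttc
Hspg2: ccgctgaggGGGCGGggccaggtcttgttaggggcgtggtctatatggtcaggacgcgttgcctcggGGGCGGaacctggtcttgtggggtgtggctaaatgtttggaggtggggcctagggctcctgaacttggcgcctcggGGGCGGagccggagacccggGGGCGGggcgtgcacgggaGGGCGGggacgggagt

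Base shares and letter matches were taken over the 250 bases before the start, with bases inside the annotated gene kept. Only 103 of these bases for Lamb1 and 1 for Lama2 lay outside that gene. G and C made up 64.4% for Nid1, 62% for Lamb1 and 72.4% for Lama5. The share was 70% for Hspg2, 43.6% for Lamb2 and 47.2% for Lama2, which overlapped at day 25, so high values occurred among both kinds of gene. The median over all promoters in the table was 52.4%. The GC box letters were present on either strand in 4 of the 6 matched promoters (Hspg2, Lama5, Lamb1 and Nid1) and in 32.74% of the 32851 promoters of that length. In Lamb1 they lie in the bases left out above. The letters GTAAACA or TGTTTAC, a forkhead factor motif, were in 0 of the 6 and in 3.17% of all promoters. A match is a description of the letters only, and the lack of one says nothing of binding.

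Nid2 had the largest log2 difference of the 10 genes at day 25. Nid2 read 214 and 132 in wild type, 2004 and 793 in the dKO at day 25, and 623 and 1517 in the dKO at 2 months. All 4 dKO arrays lay above both wild type arrays, while the dKO ages overlapped and the replicates within each dKO group differed by more than 2-fold. Against wild type the day 25 dKO stood 2.90 ± 0.64 (SE) higher in log2, or 7.46-fold, with adjusted p = 0.482 in limma. Leaving out wild type replicate 1 or 2 moved it to 3.25 or 2.55, and leaving out dKO day 25 replicate 1 or 2 moved it to 2.23 or 3.57. The 2-month dKO stood 2.52 ± 0.64 higher than wild type, adjusted p = 0.288, or 3.17 without dKO 2-month replicate 1 and 1.88 without replicate 2. Nid2 had 1 probe set, so no other reading of the gene was made.

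Nid1, the other nidogen, was 917 and 563 in wild type, 1811 and 1262 in the dKO at day 25, and 948 and 1354 at 2 months. Both dKO groups lay above wild type, at 2 months by a narrow margin on replicate 1. The day 25 log2 difference came to 1.07 ± 0.34 (SE), adjusted p = 0.561 in limma. It was 1.42 without wild type replicate 1 and 0.72 without wild type replicate 2. At 2 months it was 0.66 ± 0.34, adjusted p = 0.46. It was 0.91 without dKO 2-month replicate 1, 1.01 without wild type replicate 1 and 0.30 without wild type replicate 2. Between the dKO ages it was -0.42 ± 0.34, and -0.16 without dKO 2-month replicate 1. A dimmer Nid1 probe set gave 99 and 50, 99 and 89, and 92 and 99 in the same order of groups. It overlapped between genotypes, with a log2 difference of 0.41 at day 25 against 1.07 on the brightest probe set. The other Nid1 probe set stayed at 14 or below on every array.

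Among the beta chains, Lamb1 and Lamb2 were high in different groups. Lamb1, the beta chain of the laminins widely found in epithelial basal laminae, was 3603 and 2589 in wild type, 5555 and 5493 in the dKO at day 25, and 3930 and 4513 at 2 months. The groups were in 1 order on all arrays, with wild type lowest, the 2-month dKO between and the day 25 dKO highest. In log2, Lamb1 was 0.85 ± 0.19 (SE) higher in the day 25 dKO than in wild type, or 1.81-fold, adjusted p = 0.482 in limma. The 2 next brightest Lamb1 probe sets gave 0.86 and 0.79 and also did not overlap. Between the dKO ages Lamb1 was lower at 2 months by a log2 difference of -0.39 ± 0.19, adjusted p = 0.712, or -0.29 without dKO 2-month replicate 1. Both of those other probe sets ran the same way (-0.48 and -0.39). At 2 months against wild type Lamb1 was higher by 0.46 ± 0.19, adjusted p = 0.394, or by 0.56 without that array. There the 2 next brightest probe sets gave 0.37 and 0.39, and the former overlapped between the groups. A further Lamb1 probe set read 20 to 27 throughout.

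Lamb2, the beta chain known from vessels, kidney and muscle, was 717 and 829 in wild type, 735 and 850 in the dKO at day 25, and 2144 and 991 at 2 months. The genotypes overlapped at day 25, with a log2 difference of 0.036 ± 0.38 (SE) and an adjusted p of 1 in limma. Both 2-month arrays were above the other 4, and replicate 1 was more than 2-fold above replicate 2. The log2 difference between the dKO ages was 0.88 ± 0.38, adjusted p = 0.712. It was 0.33 without dKO 2-month replicate 1 and 1.44 without replicate 2.

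Among the alpha chains, Lama5 was the one whose genotypes did not overlap at day 25. Lama5, an alpha chain of many mature epithelial and vascular basal laminae, was 133 and 115 in wild type, 255 and 244 in the dKO at day 25, and 611 and 226 at 2 months. All dKO arrays lay above both wild type arrays, and the 2-month arrays lay on either side of the day 25 arrays. The day 25 dKO exceeded wild type by a log2 difference of 1.01 ± 0.47 (SE), or 2.01-fold, adjusted p = 0.656 in limma. Its SE comes from the spread pooled over all groups, which includes the wide 2-month pair. A second Lama5 probe set, 104 and 70 in wild type and 171 and 158 in the dKO at day 25, gave 0.94. On the brightest probe set, the log2 difference of the 2-month dKO from wild type was 1.58 ± 0.47, adjusted p = 0.329 in limma. It was 0.86 without dKO 2-month replicate 1. Between the dKO ages it was 0.57 ± 0.47, and -0.14 without that array. The dimmest Lama5 probe set stayed between 12 and 15.

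Lama4, the alpha chain of endothelial and muscle basal laminae, was 328 and 411 in wild type, 386 and 466 in the dKO at day 25, and 688 and 469 at 2 months. The genotypes overlapped at day 25, and the 2-month arrays lay above the other 4, replicate 2 only just. Lama4 gave a day 25 log2 difference of 0.21 ± 0.24 (SE), adjusted p = 0.847 in limma. Against wild type the 2-month value was 0.63 ± 0.24, adjusted p = 0.379, and 0.35 without dKO 2-month replicate 1. Its other probe set was at 15 or below on every array.

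Lama2, the alpha chain of muscle basal lamina, was 670 and 285 in wild type, 662 and 891 in the dKO at day 25, and 582 and 682 at 2 months. The wild type arrays differed by over 2-fold, and replicate 1 lay within the dKO range. Its day 25 log2 difference of 0.81 ± 0.43 (SE), adjusted p = 0.678 in limma, was 0.20 without wild type replicate 2 and 1.43 without wild type replicate 1. At 2 months against wild type it was 0.53 ± 0.43, or 0.64 without dKO 2-month replicate 1. There it was 1.14 without wild type replicate 1 and -0.089 without wild type replicate 2, so its direction rested on the latter array.

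Lama1, an alpha chain of early embryonic basal laminae, was 3750 and 5311 in wild type, 5249 and 3407 in the dKO at day 25, and 5487 and 3642 at 2 months. Each group held a high and a low array, and no groups separated. The log2 difference was -0.078 ± 0.33 (SE) at day 25 and 0.0024 ± 0.33 at 2 months against wild type, with adjusted p of 0.969 and 1 in limma. The sign at day 25 turned without wild type replicate 2 (0.17) or dKO day 25 replicate 2 (0.23). The sign at 2 months turned without dKO 2-month replicate 1 (-0.29) or wild type replicate 1 (-0.25).

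Lamc1, the gamma chain shared by most laminins, was 532 and 543 in wild type, 688 and 638 in the dKO at day 25, and 1065 and 630 at 2 months. Both dKO groups lay above wild type. The log2 difference was 0.30 ± 0.26 (SE) at day 25, adjusted p = 0.788 in limma, and 0.61 ± 0.26 at 2 months, adjusted p = 0.41. The latter was 0.23 without dKO 2-month replicate 1. A dimmer Lamc1 probe set ran the other way at day 25, with 81 and 63 in wild type and 45 on both dKO arrays, a log2 difference of -0.66 ± 0.25. The direction of Lamc1 at day 25 therefore depends on the probe set.

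Hspg2 was 561 and 416 in wild type, 475 and 550 in the dKO at day 25, and 1289 and 533 at 2 months. Of the 6 arrays, dKO 2-month replicate 1 stood highest, and replicate 2 lay within the range of the other groups. The log2 difference was 0.081 ± 0.45 (SE) at day 25 and 0.78 ± 0.45 at 2 months, adjusted p of 0.983 and 0.493 in limma. Without dKO 2-month replicate 1 the latter was 0.14. The other Hspg2 probe set gave 531 and 503 in wild type, 420 and 490 in the dKO at day 25, and 655 and 521 at 2 months. It was lower in the dKO at day 25 by a log2 difference of -0.19 ± 0.16, opposite in sign to the brighter probe set.

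**Figure D2:**
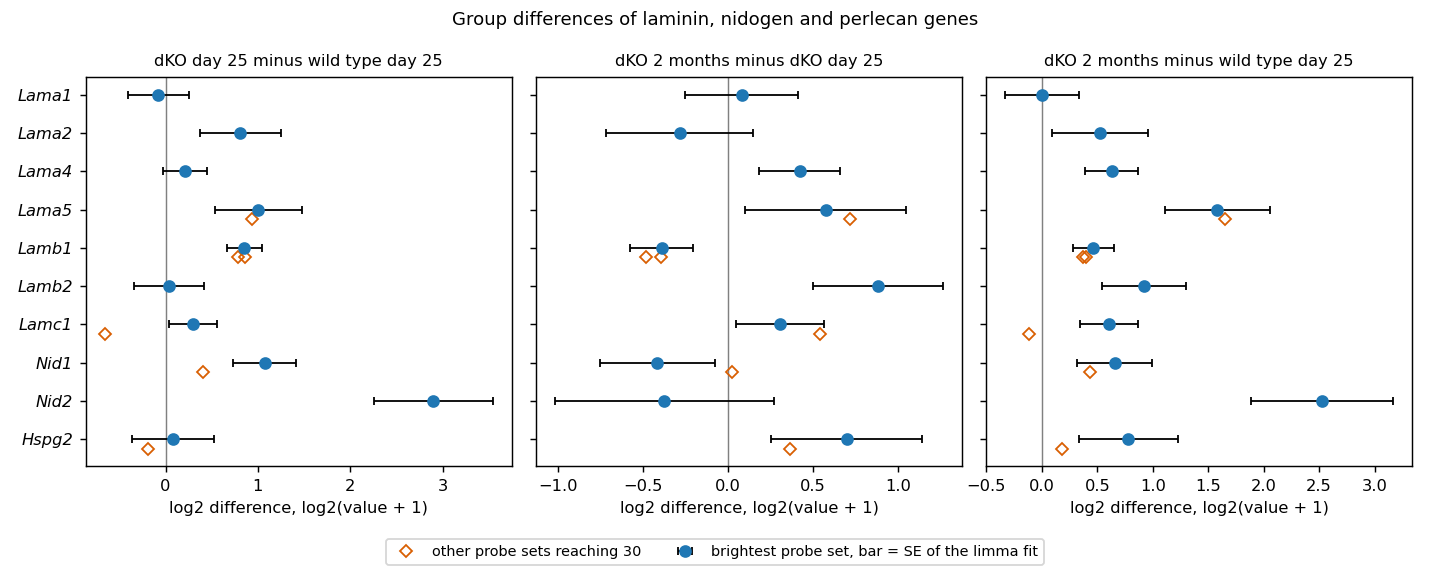
Log2 difference on the log2(value + 1) scale for each gene in 3 comparisons, in limma. Filled points are the brightest probe set with its SE, and open diamonds are other probe sets that reached 30 on an array. Nid2 stands furthest from 0 against wild type at both dKO ages, at 2.90 and 2.52, and the diamonds of Lamc1 and Hspg2 lie on the other side of 0 at day 25.

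Of the 10 probe sets that were not the brightest of their gene, 6 reached 30 on an array. At day 25, 4 of these 6 had the sign of the brightest probe set and 2 did not, those of Lamc1 and Hspg2. In each of the other comparisons 5 of 6 had the same sign, with Nid1 the exception between the dKO ages and Lamc1 the exception at 2 months against wild type.

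Between day 25 and 2 months in the dKO, no common direction was seen. Foxo1 was also lower at 2 months (126 to 343) than at day 25 (904 to 2291) in the dKO. Age and the level of Foxo1 therefore cannot be told apart in this comparison. The means of 6 of the 10 genes were higher at 2 months, against 53% of all genes, and those of 4 were lower (Lama2, Lamb1, Nid1 and Nid2). The ages did not overlap for Lama4 and Lamb2, which were higher, 2 of 10 against 19.7% of all genes, and for Lamb1, which was lower, 1 of 10 against 17% of all genes. The median log2 difference was 0.19, against 0.021 over all genes, and -0.11 without dKO 2-month replicate 1. At an unadjusted p under 0.05 in limma 0 of the 10 were higher, against 3.73% of all genes, and 0 were lower, against 2.9%. The count of higher genes changed with the array left out, and no share over all genes is given for those fits. After adjustment 0 of the 10 passed, as did 0% of all genes, and the smallest adjusted p of the 10 was 0.712.

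In the dKO at 2 months against wild type at day 25, the mean of each of the 10 genes was higher, against 55.4% of all genes. That of Lama1 was higher by a log2 difference of 0.0024, which turned to -0.0074 with array medians set equal. The groups did not overlap for 7 of 10 (Lama4, Lama5, Lamb1, Lamb2, Lamc1, Nid1 and Nid2), against 26.5% of all genes. The median log2 difference was 0.64, against 0.039 over all genes, and 0.46 without dKO 2-month replicate 1 or 0.94 without replicate 2. At an unadjusted p under 0.05 in limma 3 were higher (Lama4, Lama5 and Nid2), against 9.53% of all genes, and 0 were lower, against 5.36%. After adjustment 0 of the 10 passed, as did 0% of all genes, with adjusted p from 0.288 to 1. The count at an unadjusted p under 0.05 changed with the array left out, and no share over all genes is given for those fits. The comparisons share arrays pairwise, so their values for a gene are not separate evidence.

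The 10 genes did not vary over the arrays as 1 group. On dKO 2-month replicate 1, Lama5, Lamb2, Hspg2, Lamc1, Lama4 and Lama1 had their highest value, 6 of 10 against 29.6% of all genes. Relative to the mean of the 6 arrays, log2 levels on that array were 1.43 for Lama5, 1.16 for Lamb2, 1.13 for Hspg2, 0.68 for Lamc1 and 0.63 for Lama4. On the same array Nid1, Lamb1 and Lama2 were at -0.18, -0.076 and -0.034, and Nid2 was at 0.076 against 1.36 on replicate 2. Of the 5 genes that did not overlap at day 25, Lama5 and Lamc1 had their highest value on that array, while Nid1, Nid2 and Lamb1 had theirs on dKO day 25 replicate 1. The lowest value of 9 of the 10 genes was on a wild type array. It was on replicate 2 for 6 of 10, against 15.4% of all genes, and on replicate 1 for 3 of 10, against 25.8%. That of Lama1 was on dKO day 25 replicate 2.

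**Figure D3:**
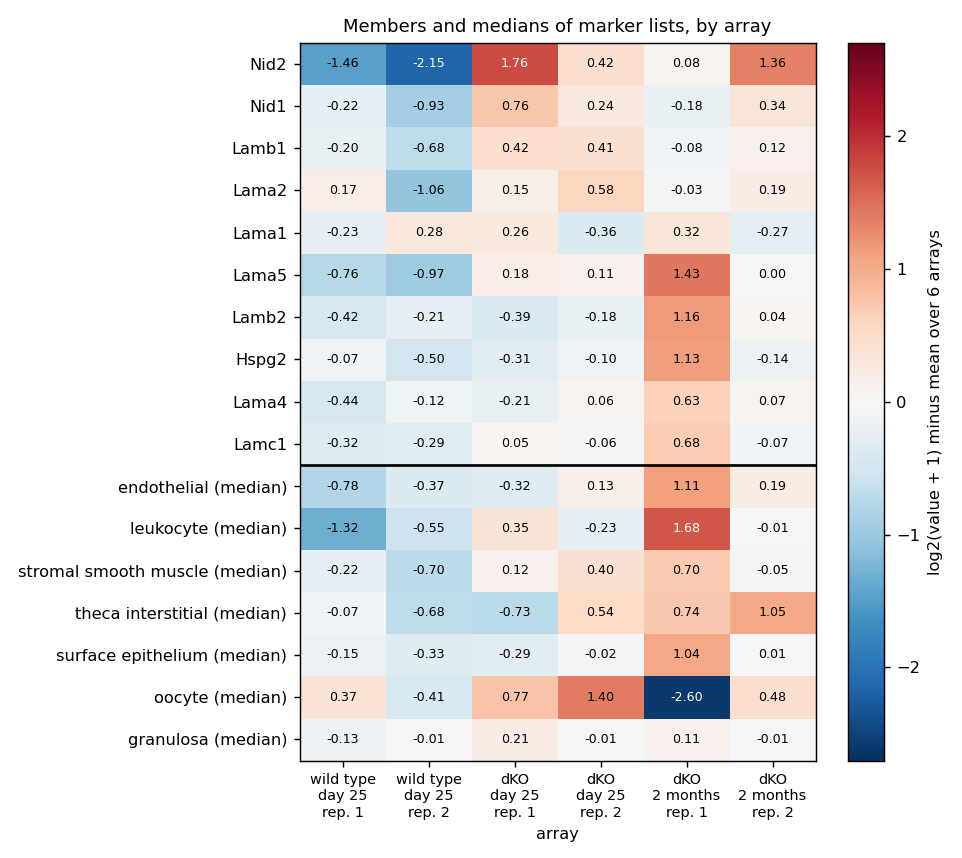
Log2(value + 1) minus the mean over 6 arrays for the 10 genes (above the line) and the median of the same quantity over each list of cell type markers (below it), by array. Colour and printed values give the same number. On dKO 2-month replicate 1, Lama5, Lamb2 and Hspg2 are above 1, as are the endothelial, leukocyte and surface epithelium medians, and the oocyte median is -2.60.

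Several lists of genes used as markers of other cells also differed between the groups, and their part in the results was not tested. Whether granulosa cells themselves expressed some of these genes was not tested either. In bulk RNA, more cells of a type and more RNA per cell cannot be told apart. Summed endothelial intensity over 12 of 12 markers was 1094 to 1331 in wild type, 1371 to 2016 in the dKO at day 25 and 2126 to 4113 at 2 months, highest on dKO 2-month replicate 1. At day 25 the dKO means of 12 of these 12 markers exceeded wild type, against 55.4% of all genes. The lowest marker, Vwf, was 20 to 29 in wild type. For stromal and smooth muscle markers (13 of 13) the sums were 17625 to 25418, 30578 to 37700 and 27459 to 51265, with 13 of 13 higher at day 25.

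Leukocyte sums (11 of 12 markers measured) were 1764 to 3195, 4723 to 8668 and 5227 to 16740, and Itgam read 12 to 16 throughout. Surface epithelium sums (8 of 8) were 2714 to 2781, 2832 to 3388 and 3576 to 5193, although at day 25 the means of 4 markers were higher and those of 4 lower, with a median log2 difference of 0.051. Theca and interstitial sums (6 of 8 measured) were 5213 to 6055, 3757 to 11077 and 22050 to 23918. Cyp17a1 made up much of these sums at 2 months and of their spread in the dKO at day 25. It was 1275 and 1509 in wild type, 389 and 5073 in the dKO at day 25, and 12804 and 15028 at 2 months. Between the dKO ages the means of Cyp17a1, Cyp11a1 and Star were higher, and those of Ptch1, Gli1 and Hhip were lower. Oocyte sums (11 of 11) were 20306 to 33885, 47754 to 71206 and 5771 to 37388, with the lowest sum on dKO 2-month replicate 1. No marker was at 0, since array intensities keep a floor of 6 or 7.

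Other basal lamina genes lay on both sides of wild type at day 25. Of 23 listed genes (type IV, XV and XVIII collagens, agrin, further laminin chains and matrix linkers) 22 were measured. At day 25, 12 had higher means in the dKO, against 55.4% of all genes, and 10 had lower means, with a median log2 difference of 0.080. Without overlap, 10 lay above and 6 below wild type, against 26.4% and 19.5% of all genes. In limma 4 higher and 0 lower had an unadjusted p under 0.05, against 4.88% and 3.43% of all genes, and 0 passed after adjustment. At 2 months against wild type 13 were higher, against 55.4% of all genes, and 9 were lower. Of these, 4 and 1 had an unadjusted p under 0.05 in limma, against 9.53% and 5.36% of all genes.

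Lamc3, a further laminin gamma chain, was 164 and 130 in wild type, 193 and 241 in the dKO at day 25, and 266 and 341 at 2 months. The groups did not overlap in any comparison, and the 2-month dKO was above wild type by a log2 difference of 1.04 ± 0.21 (SE), adjusted p = 0.235 in limma, or by 1.22 without dKO 2-month replicate 1. Col4a6, a type IV collagen chain, was 222 and 241 in wild type and 123 and 170 in the dKO at day 25, a log2 difference of -0.67 ± 0.32, adjusted p = 0.655. Fbln1, a matrix glycoprotein that binds laminin and nidogen, was 3356 and 5016 against 2667 and 2749, a log2 difference of -0.60 ± 0.26, adjusted p = 0.642. Pxdn, the peroxidase that crosslinks type IV collagen, was 3030 and 2378 in wild type and 1830 and 1023 in the dKO at 2 months, a log2 difference of -0.97 ± 0.33, adjusted p = 0.353, or -1.39 without dKO 2-month replicate 1. The matrix glycoprotein Sparc had log2 differences from wild type of 0.79 ± 0.17 at day 25 and 1.05 ± 0.17 at 2 months, adjusted p of 0.48 and 0.192, the latter difference being 0.91 without dKO 2-month replicate 1.

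Laminin and matrix receptors, 12 of 12 measured, gave 8 higher and 4 lower means when the day 25 dKO was set against wild type. Of all genes 55.4% had a higher mean there. The median log2 difference of the receptors was 0.15. Those with an unadjusted p under 0.05 in limma were 3 higher and 1 lower at day 25, against 4.88% and 3.43% of all genes. At 2 months against wild type they were 4 higher and 1 lower, against 9.53% and 5.36%. None passed after adjustment in any comparison, where the smallest adjusted p of these genes was 0.167. Itga6, the alpha 6 integrin subunit that binds laminin, was 3232 and 2961 in wild type, 4617 and 6135 in the dKO at day 25, and 6864 and 7709 at 2 months. The 3 groups did not overlap. The log2 differences of Itga6 were 0.78 ± 0.17 (SE) at day 25 from wild type, 0.45 ± 0.17 between the dKO ages and 1.23 ± 0.17 at 2 months from wild type, with adjusted p of 0.482, 0.712 and 0.167. Without dKO 2-month replicate 1 the last pair were 0.53 and 1.32.

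Itga7, the laminin-binding integrin subunit of muscle, was 59 and 48 in wild type, 396 and 232 in the dKO at day 25, and 632 and 152 at 2 months. All dKO arrays were above wild type, with a day 25 log2 difference of 2.49 ± 0.72 (SE), adjusted p = 0.554 in limma. Itga2, a collagen and laminin receptor subunit, was 106 and 76 in wild type, 47 and 53 in the dKO at day 25, and 50 and 49 at 2 months. Its log2 difference at day 25 was -0.83 ± 0.18, adjusted p = 0.482. Itgb1, the beta subunit shared by these integrins, was 1797 and 1832, 1906 and 1690, and 2895 and 2072. It overlapped at day 25 and was higher on both 2-month arrays. Between the dKO ages the log2 difference of Itgb1 was 0.45 ± 0.19, or 0.21 without dKO 2-month replicate 1. Sdc1, a heparan sulfate proteoglycan of the cell surface, was 4850 and 4217, 5244 and 4128, and 2160 and 3742, lowest at 2 months. Its log2 difference between the dKO ages was -0.71 ± 0.30, or -0.31 without that array. Rpsa, a ribosomal protein once named the laminin receptor, was also lower at 2 months than in the dKO at day 25, by a log2 difference of -0.23 ± 0.13, or -0.082 without dKO 2-month replicate 1.

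**Figure D4:**
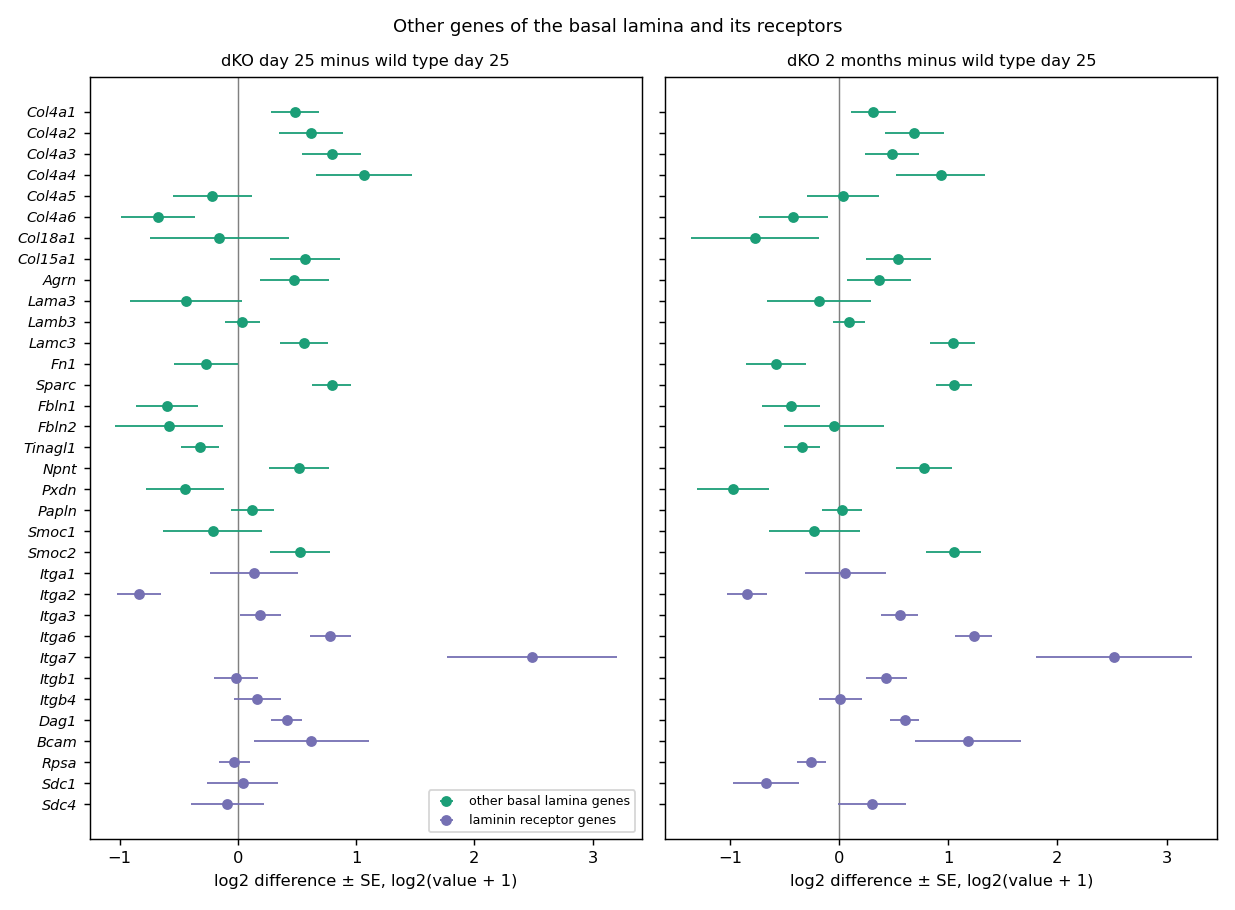
Log2 difference with its SE on the log2(value + 1) scale, in limma, for 22 other basal lamina genes and 12 laminin and matrix receptor genes, dKO at day 25 (left) and at 2 months (right) against wild type at day 25. Points lie on both sides of 0, with Itga7 furthest to the right at day 25 (2.49).

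For the 3 genes with the widest range over the arrays, Nid2, Lama5 and Nid1, the genes of most like pattern were sought among 10960 other genes of mean intensity of at least 100. Likeness was the root mean square difference, over 6 arrays, of log2 levels relative to each gene's own mean, so smaller is closer. For Nid2 they were Hephl1 (0.32), Tac1 (0.41) and Kcnj5 (0.48). Tac1, which encodes the peptide substance P, was 367 and 348 in wild type, 2985 and 886 in the dKO at day 25, and 1481 and 2918 at 2 months, and so shared the spread of Nid2 within each dKO group. For Nid1 they were Tbc1d4 (0.10), a regulator of glucose transporter traffic, Lmo7 (0.11) and Mmp23 (0.19).

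For Lama5 the closest were Mcam (0.11), an adhesion molecule of vessels, Tnfrsf19 (0.12) and Mrc1 (0.13), the macrophage mannose receptor. Mcam was 143 and 111 in wild type, 256 and 210 in the dKO at day 25, and 586 and 200 at 2 months, which placed dKO 2-month replicate 1 apart as it did for Lama5. These likenesses are a description, with no test.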

How the data were processed

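Total RNA was labelled with biotin and measured on Affymetrix arrays, with 1 array for each sample, per the labels. The authors deposited linear intensity values in whole numbers for every probe set. The submitters' processing notes name affy and RMA, and versions and genome build are not given in the sources used here. RMA makes array distributions alike (medians 73 or 74), so a general shift is hidden. The number of arrays limits the precision.

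Values were taken as log2(value + 1), and a fold from it is too small where a gene is dim. Of 45101 probe sets, 64 controls were left out. The platform annotation gave 1 symbol for 34945 of the rest, several for 932 and none for 9160, and only the first were named. The brightest probe set by mean stood for a gene. With R 4.3.3 and limma 3.58.1, 1 fit of 6 arrays (a mean per group, 3 residual degrees of freedom) gave 3 two-sided contrasts, Benjamini-Hochberg adjusted over 45037 probe sets, with a threshold of 0.05. The fit was tested on simulated data. The smallest exact permutation p for groups of 2 is 0.333, so that test was not used. Values are given per array or as a log2 difference ± SE.

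The members and gene lists were chosen with earlier results of these data known. All 10 members were named. Of the basal lamina and receptor lists, up to 3 genes per direction and comparison with the smallest p were taken, with 3 like genes for each of the 3 members of widest range. The alternatives tried were a pseudocount of 16, equal array medians, quantile normalization again, a filter on dim probe sets, a trend with a robust prior, a fit of the 4 arrays in question, averaging a gene's probe sets, exclusion of cross-hybridizing probe sets, array weights, a replicate block, a 0.01 threshold and leaving out each array. Their effect on counts at an unadjusted p under 0.05, and list genes without dKO 2-month replicate 1, were added after seeing the data.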

Additional observations from a re-analysis of the deposited data

How the results depend on the processing

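Under all alternatives 0 of the 10 genes passed after adjustment in any of the 3 comparisons, in limma. The smallest adjusted p of the 10 over these alternatives was 0.238 at day 25, 0.122 between ages and 0.0773 at 2 months against wild type. With the replicate block the counts were 0, 0 and 0, and the log2 differences were those without it. Correlations of replicate deviations between groups were -0.16, -0.21 and 0.06. With a single deviation per group, they cannot settle whether samples of the same replicate number were paired. Counts at an unadjusted p under 0.05 with the replicate block were 3, 0 and 2.

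Of 48 medians under alternatives, 43 moved by less than the spread between replicates. Part of that agreement was fixed in advance. The filter on dim probe sets, the trend with a robust prior, the fit of only the 4 arrays compared, array weights and the replicate block left every median unchanged. Dropping an array that a comparison does not use cannot change its median either. The 43 are therefore not a count of tests passed. With the mean of all probe sets the day 25 median was 0.35. With an array left out, the median ran from 0.34 to 0.69 at day 25, from -0.11 to 0.53 between the dKO ages and from 0.46 to 0.94 at 2 months against wild type. Counts at an unadjusted p under 0.05 in limma also changed with the array left out. With only the 4 arrays compared they were 5 at day 25 and 1 at 2 months against wild type. They were 5 at 2 months against wild type with a trend and robust prior, and 1 between the dKO ages with array weights. No share over all genes under the alternatives is given, so these counts cannot be set against one.

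Of 480 log2 differences of single genes under alternatives, 461 kept their sign and 19 turned sign. The alternatives that could not move a median could not move these values either, so the 461 include agreement fixed in advance. At day 25, the mean of all probe sets turned Lamc1 to -0.18 and Hspg2 to -0.053, and exclusion of cross-hybridizing probe sets turned Hspg2 to -0.19. Array medians set equal turned Lama1 at 2 months against wild type to -0.0074. The rest came with an array left out. At day 25 the ranges were -0.39 to 0.23 for Lama1, -0.069 to 0.14 for Lamb2 and -0.13 to 0.30 for Hspg2. Between the dKO ages they were -0.23 to 0.39 for Lama1, -0.14 to 1.29 for Lama5, -0.073 to 0.68 for Lamc1 and -1.04 to 0.29 for Nid2. At 2 months against wild type they were -0.29 to 0.30 for Lama1 and -0.089 to 1.14 for Lama2. The cause was not tested. A lone array left in a group is assumed to vary like the others. Probe sets under 30 on every array, 4 of 20, were near the floor and limit what can be read from them.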
